A study of Homo sapiens with 4 samples.

Results

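Proteins and lipids move between the endoplasmic reticulum (ER) and the Golgi in small coated vesicles, and the 46 genes described here encode that machinery: the 2 coats, their GTPases, the receptors that load cargo, and the tethers and SNAREs that bring vesicles to their target. Genes were taken by name. A gene entered where a probe set of the array was annotated with its symbol and no other, and where a gene had several such probe sets the brightest over the 4 arrays stood for it. This gave 41 of the 46 listed genes, out of 22411 genes measured. ARF1, TMED7 and SEC22B lay on probe sets annotated with several symbols, and no single-symbol probe set was matched to KDELR2 or USO1, so these 5 genes have no values here.

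RNA was measured on Affymetrix arrays in HCT116, an established human colon cancer line. There were 2 groups of 2 arrays, HCT116 cells transiently transfected with PRSS8 expression plasmids and HCT116 cells transfected with the vector control, numbered replicate 1 and 2 in each group and called biological by the labels. PRSS8 encodes prostasin, a membrane-anchored serine protease of epithelia. The promoter that drives PRSS8 in the plasmid, the share of cells that took it up and the time to collection are not given in the sources used here.

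Vesicles that leave the ER are built by the COPII coat: the exchange factor PREB loads the GTPase SAR1 with GTP at sites organised by SEC16A, SAR1 recruits the inner SEC23-SEC24 layer, in which SEC24 binds cargo, and the outer SEC13-SEC31 cage completes the bud. Vesicles that return escaped ER proteins from the Golgi carry the COPI coat (coatomer), recruited by ARF GTPases that the exchange factor GBF1 activates. KDEL receptors catch soluble ER chaperones for this return trip, p24 (TMED) proteins and lectins such as LMAN1 act as cargo receptors, and SNAREs fuse the vesicles with their target. Cells that load their ER with secretory protein are known to raise many of these genes through XBP1 and ATF6, transcription factors of the unfolded protein response, and a separate Golgi stress response acts through a related DNA element.

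Promoter sequences are shown because those factors bind short elements near gene starts. Windows from 250 bases before to 50 bases after the start of 40 of the 46 genes were read from RefSeq (GRCh38.p14) and searched on both strands for exact matches. Not matched were SEC24D, ARF4, KDELR2, TMED4, TMED9 and USO1. The unfolded protein response element core TGACGTGG lay in 10 of 40 windows (25.0%), against 0.795% of 27305 promoters, 0.833% of 15843 protein-coding promoters and 1.25% of 4410 promoters of genes whose mean level on these arrays was 6 or more. The Golgi stress element ACGTGGC lay in 17 of 40 (42.5%), against 3.3% of all promoters, 3.81% of protein-coding promoters and 5.12% at level 6 or above. These motifs share letters: 7 promoters held both, and in 6 of them the matches overlapped. The ER stress response element, CCAAT and CCACG separated by 9 bases, was matched in 0 of 40 windows and in 0.0806% of all promoters. A match describes the letters of a window and is not evidence of binding.

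The stretches around every TGACGTGG match follow, written 5′ to 3′ on the gene's strand with the match in capitals, so that CCACGTCA marks a match on the opposite strand.
COPA, chr1:160343227-160343256, minus strand: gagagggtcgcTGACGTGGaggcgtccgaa
ARF1, chr1:228082681-228082710, plus strand: cccggaggcgcTGACGTGGccgccgtcaga
COPB2, chr3:139389825-139389854, minus strand: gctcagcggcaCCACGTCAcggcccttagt
COPB2, chr3:139389632-139389661, minus strand: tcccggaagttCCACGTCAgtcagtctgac
SEC24A, chr5:134648595-134648624, plus strand: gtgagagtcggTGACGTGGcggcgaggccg
SEC16A, chr9:136484707-136484736, minus strand: tggccctggtgCCACGTCAgccggactgaa
GBF1, chr10:102245526-102245555, plus strand: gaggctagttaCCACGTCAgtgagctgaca
COPB1, chr11:14499841-14499870, minus strand: cccacccccttCCACGTCAgccaaggactc
STX5, chr11:62832049-62832078, minus strand: ttacgtgtaggTGACGTGGccgcttccagt
SEC23A, chr14:39103221-39103250, minus strand: tcccctcctctTGACGTGGcagaggcggcg
KDELR3, chr22:38468039-38468068, plus strand: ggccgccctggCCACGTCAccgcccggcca

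One motif or the other was matched in 20 of 40 windows, against 3.78% of all promoters. By role, these were 6 of 9 COPI coat genes, 5 of 7 COPII coat genes and 2 of 4 COPII assembly genes with a window. The others were 1 of 3 ARF genes, GBF1, 1 of 2 KDEL receptors, 1 of 4 cargo receptors, 2 of 5 p24 genes and 1 of 5 tether and SNARE genes. Within families the matches were uneven: KDELR3 held both motifs and KDELR1 neither, and SEC23A held both and SEC23B neither. The plot of motif shares sets the vesicle genes beside the 2 backgrounds.

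**Figure D1:**
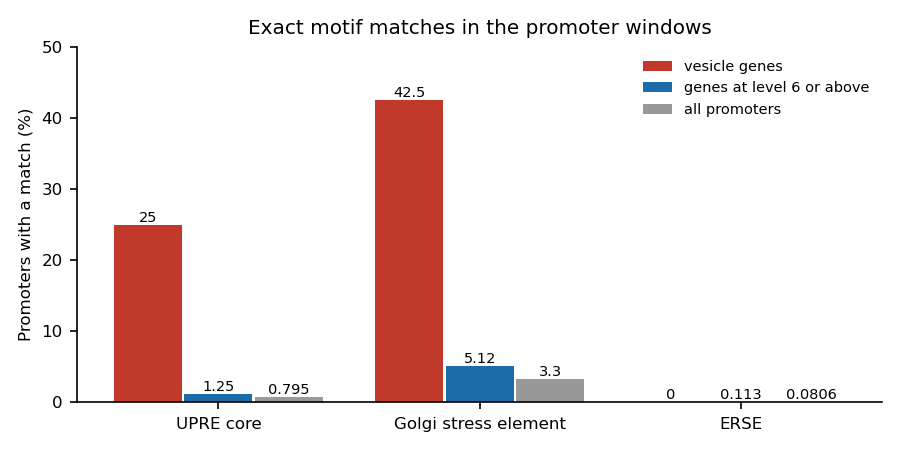
Share of promoter windows (%) with at least 1 exact match to the unfolded protein response element (UPRE) core, the Golgi stress element and the ER stress response element (ERSE), for 40 vesicle genes, 4410 genes at level 6 or above and all 27305 promoters. The vesicle genes stand at 25.0% and 42.5% for the first and second motif and at 0% for the third.

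The full windows follow for the 5 genes with a promoter entry whose PRSS8 arrays both stood above both control arrays, with matches to either motif in capitals. SEC13, COPG1, SURF4 and SEC24C each held ACGTGGC, and SEC23B held neither motif. The match lay 8 bases before the start in COPG1, 53 before it in SURF4 and 72 before it in SEC24C, and began 24 bases after it in SEC13.
SEC13, chr3:10321063-10321362, minus strand: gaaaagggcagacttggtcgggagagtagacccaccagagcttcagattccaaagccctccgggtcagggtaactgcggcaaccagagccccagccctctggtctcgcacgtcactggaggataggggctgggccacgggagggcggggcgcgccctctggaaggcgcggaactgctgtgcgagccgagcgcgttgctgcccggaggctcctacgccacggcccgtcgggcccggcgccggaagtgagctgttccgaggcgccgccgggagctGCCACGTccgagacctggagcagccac
COPG1, chr3:129249356-129249655, plus strand: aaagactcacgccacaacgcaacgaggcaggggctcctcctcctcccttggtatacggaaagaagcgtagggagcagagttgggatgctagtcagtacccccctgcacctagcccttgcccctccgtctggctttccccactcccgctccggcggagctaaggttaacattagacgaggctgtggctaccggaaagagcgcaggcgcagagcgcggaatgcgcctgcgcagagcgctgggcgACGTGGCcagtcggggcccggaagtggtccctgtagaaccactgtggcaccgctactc
SURF4, chr9:133376011-133376310, minus strand: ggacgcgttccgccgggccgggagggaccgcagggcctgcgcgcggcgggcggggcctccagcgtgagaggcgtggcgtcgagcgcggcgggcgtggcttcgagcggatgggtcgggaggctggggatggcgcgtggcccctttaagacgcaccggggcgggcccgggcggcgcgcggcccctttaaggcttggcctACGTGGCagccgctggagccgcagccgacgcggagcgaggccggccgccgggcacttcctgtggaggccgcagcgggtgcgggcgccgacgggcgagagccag
SEC24C, chr10:73744122-73744421, plus strand: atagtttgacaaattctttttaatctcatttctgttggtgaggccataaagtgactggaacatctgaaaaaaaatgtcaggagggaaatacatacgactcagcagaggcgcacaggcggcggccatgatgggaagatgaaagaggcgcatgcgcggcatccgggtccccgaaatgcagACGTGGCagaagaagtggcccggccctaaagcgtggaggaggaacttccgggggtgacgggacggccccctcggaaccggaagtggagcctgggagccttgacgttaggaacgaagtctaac
SEC23B, chr20:18507298-18507597, plus strand: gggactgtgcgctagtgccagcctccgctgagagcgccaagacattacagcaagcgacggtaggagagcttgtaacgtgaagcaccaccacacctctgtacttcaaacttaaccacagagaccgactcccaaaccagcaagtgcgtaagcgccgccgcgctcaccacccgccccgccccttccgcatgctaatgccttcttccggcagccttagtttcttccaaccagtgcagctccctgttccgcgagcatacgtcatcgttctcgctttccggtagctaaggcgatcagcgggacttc

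The arrays give log2 levels per probe set, and a difference is PRSS8 minus control on that scale, so that 1 is a doubling. The transfected gene, PRSS8 (TC16001050.hg.1), measured 18.55 and 18.07 on the PRSS8 arrays of replicates 1 and 2, against 10.45 and 11.18 on the control arrays, a difference of 7.49 (SE 0.57) that had an adjusted p of 1 in limma. Array medians were 3.61 and 3.86 with PRSS8 and 3.60 and 3.92 in control. Arrays resembled the array of the same number more than the array of the same group: across genes, Pearson's r was 0.996 and 0.989 within replicates 1 and 2, but 0.934 between the PRSS8 arrays and 0.930 between the controls. For this reason many differences are also given within replicate 1 and within replicate 2, and both values are plotted below for all 41 vesicle genes. Of 10 markers of colon epithelium 6 stood at level 6 or above, among them EPCAM, KRT8 and KRT18, while the villus and differentiation markers VIL1, CDX2, CDH17 and LGALS4 stood between 3.25 and 4.02, near the array medians. The 13 measured markers of fibroblasts, leukocytes and endothelium all had a mean level under 6. The most uneven of them was the fibroblast marker DCN, with 3.75 and 3.85 on the PRSS8 arrays against 3.34 and 5.13 on the controls. The arrays measure the RNA of a whole culture, so that a change in the share of cells and a change in RNA per cell cannot be told apart.

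As a group, the vesicle genes stood higher after PRSS8 transfection. The median difference of the 41 genes was 0.37, with 0.19 in replicate 1 and 0.62 in replicate 2, where the median over all genes was 0.0006, −0.0012 and 0.009. Higher in both replicate numbers were 29 of 41 genes (70.7%), against a background of 26.0% of all genes, and lower in both were 3 (7.32%), SEC16A, ARF3 and TMED4, against 24.5%. The other 9 genes had opposite signs. Bright genes as a whole were also higher, so a second background was added after seeing the data. It was the 5788 genes at a mean level of 6 or more, which 38 of the 41 reached. Of these 38, 28 were higher in both numbers (73.7%) and 3 lower in both (7.89%), against 38.0% and 15.0% of the 5788. The median of the 38 was 0.42, with 0.20 in replicate 1 and 0.65 in replicate 2, against 0.10, −0.02 and 0.22 for the 5788. Bright markers of colon epithelium also stood higher in replicate 2. All 6 were higher there with PRSS8, by 0.17 (CDH1), 0.55 (EPCAM), 0.78 (KRT8), 0.88 (KRT19), 0.997 (KRT18) and 1.11 (CLDN4), where the vesicle median was 0.62. In replicate 1 they lay between −0.15 (EPCAM) and 0.40 (KRT19), with 4 of 6 above 0. The dim markers of the same list did not share the rise in replicate 2. They differed there by −0.25 (VIL1), −0.20 (CDH17), −0.0019 (LGALS4) and 0.08 (CDX2). The summed log2 level of all 10 markers was 83.3 and 85.3 on the PRSS8 arrays, against 82.2 and 81.2 on the controls, and their part in the shift of the vesicle genes was not tested.

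No vesicle gene passed the test on its own. In limma with Benjamini-Hochberg adjustment over all genes, 0 of 41 had an adjusted p under 0.05 (background 0.0% higher and 0.0% lower), and 0 of 41 had an unadjusted p under 0.05, with p between 0.18 and 0.94, where 0.0759% of all genes were higher and 0.112% lower at that unadjusted level (0.0691% and 0.0173% at level 6 or above). This fit had no term for the replicate number, and the labels do not say that a number marks a shared culture or day. With such a term, limma gave an unadjusted p under 0.05 to 8 of 41 vesicle genes and 1174 of 22411 genes. After adjustment 0 genes passed, and no share at level 6 or above is available for that fit. With 2 arrays against 2, an exact two-sided permutation test cannot give a p below 0.33. The shift of the group therefore rests on counts and medians, for a list chosen with earlier results of these data known. Its size depended on single arrays, at 0.08 without control replicate 2 and 0.60 without control replicate 1. With an array left out the groups also differ in their mix of replicate numbers.

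**Figure D2:**
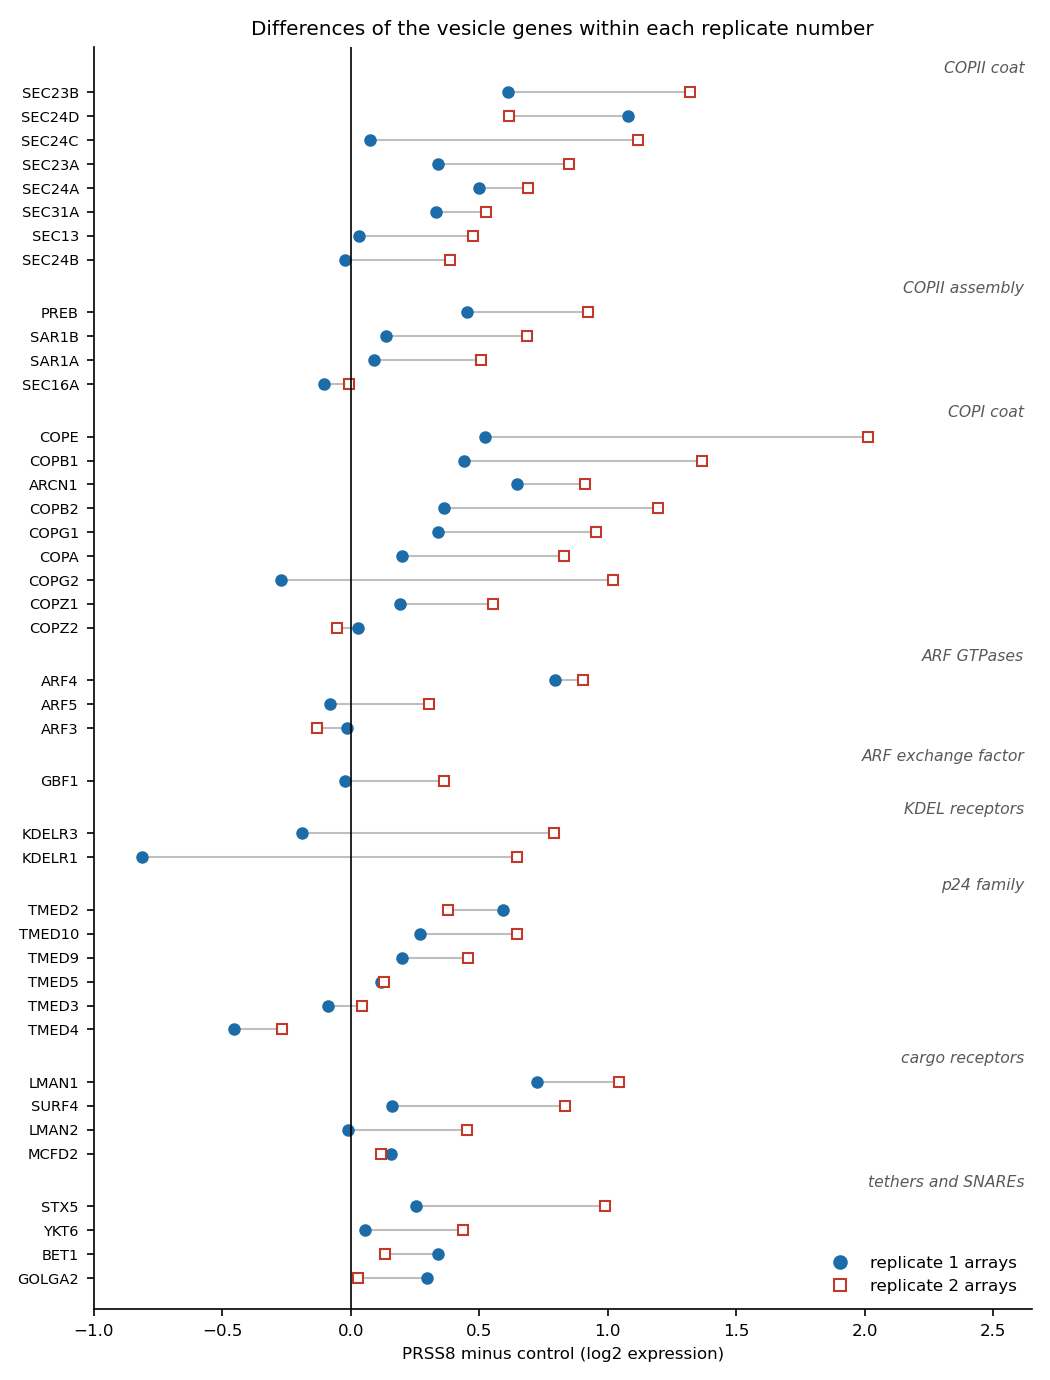
PRSS8 minus control (log2 expression, horizontal axis) for the 41 measured vesicle genes, grouped by role, within the replicate 1 arrays (filled circles) and the replicate 2 arrays (open squares), with a line joining both values of a gene. Most points lie right of 0, 29 genes are right of 0 in both numbers, and 34 of 41 have the larger value in replicate 2.

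In 8 genes both PRSS8 arrays stood above both control arrays (19.5% of 41, against 5.53% of all genes and 6.12% of genes at level 6 or above), and in 1 gene both stood below (2.44%, against 5.56% and 2.21%). The 8 were SEC13, SEC23B, SEC24C, SEC24D, COPG1, ARF4, TMED9 and SURF4, and the 1 was TMED4. After quantile normalization 5 genes stood above and 0 below, where 8.88% and 6.84% of all genes did. A gap of at least 1.5-fold between the nearest arrays was left for 1 gene, ARF4, against 0.0714% of all genes and 0.276% at level 6 or above, and for 0 genes below control, against 0.0357% and 0.0691%.

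ARF4, a small GTPase of the Golgi that recruits coat and tether proteins, had the widest gap between the groups among the 41 genes. It stood at 13.94 and 14.16 on the PRSS8 arrays, against 13.14 and 13.25 on the controls, a difference of 0.85 (SE 0.59), with 0.80 in replicate 1 and 0.90 in replicate 2. Both PRSS8 arrays lay above both controls by at least 1.61-fold. Left without any 1 array, the difference ranged from 0.74 to 0.96. The other measured ARF genes, ARF3 and ARF5, did not share this pattern. ARF3 stood at 7.97 and 8.45 with PRSS8 and at 7.99 and 8.58 in control (difference −0.07, SE 0.63), and ARF5 at 7.57 and 8.17 with PRSS8 and at 7.65 and 7.87 in control (0.11, SE 0.57). In both genes the groups overlapped. ARF4 exceeded ARF3 in difference by 0.81 in replicate 1 and 1.03 in replicate 2, and ARF5 by 0.88 and 0.60, values for which no test was made. The median of the 3 genes was 0.11, and between −0.19 and 0.41 with an array left out. GBF1, the exchange factor that activates ARFs at the early Golgi, stood at 10.94 and 11.31 on the PRSS8 arrays and at 10.96 and 10.94 on the control arrays (0.17, SE 0.75), so that 1 PRSS8 array was higher and the other level with control.

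All 8 genes of the COPII coat had a positive difference, and 7 of 8 were higher in both replicate numbers, where 26.0% of all genes and 38.0% at level 6 or above were. Their median difference was 0.59, with 0.34 in replicate 1 and 0.65 in replicate 2. It was 0.14 without control replicate 2 and 1.04 without control replicate 1. Both PRSS8 arrays stood above both controls for 4 of the 8, where 5.53% of all genes and 6.12% at level 6 or above did.

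SEC23B, an inner coat subunit that activates SAR1's GTPase, had the highest difference of the coat. It stood at 11.06 and 10.90 with PRSS8 and at 10.44 and 9.59 in control, a difference of 0.97 (SE 0.79) or 1.95-fold, with 0.61 in replicate 1 and 1.32 in replicate 2. The difference was 0.54 without control replicate 2 and 1.39 without control replicate 1. Its paralog SEC23A, with 10.49 and 8.60 on the PRSS8 arrays against 10.15 and 7.75 on the controls, differed by 0.59 (SE 1.20). There the gap between replicate numbers, a mean of −2.15 for replicate 2 minus replicate 1, was larger than the difference between groups.

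The 4 SEC24 genes encode alternative cargo-binding subunits. SEC24D stood at 7.57 and 6.56 on the PRSS8 arrays, against 6.49 and 5.94 on the controls, a difference of 0.85 (SE 0.53) or 1.8-fold. Its difference was the larger in replicate 1, at 1.08 against 0.62 in replicate 2, the reverse of most vesicle genes, and the nearest arrays of the groups were 1.05-fold apart. Its difference was 0.34 without PRSS8 replicate 1 and 1.35 without PRSS8 replicate 2. SEC24C stood at 7.61 and 8.56 with PRSS8 and at 7.54 and 7.44 in control (0.60, SE 0.61), nearly all of it in replicate 2, where the difference was 1.12 against 0.08 in replicate 1. Its difference was 0.12 without PRSS8 replicate 2 and 1.07 without PRSS8 replicate 1. SEC24A differed by 0.59 (SE 0.90), with 0.50 and 0.69 in replicates 1 and 2. SEC24B had the lowest difference of the coat, with 10.29 and 9.14 on the PRSS8 arrays against 10.31 and 8.76 on the controls (0.18, SE 0.94), and its replicate 1 value was −0.02. In both replicate numbers SEC24A, SEC24C and SEC24D exceeded SEC24B in difference, by 0.10 to 1.10 in replicate 1 and by 0.23 to 0.73 in replicate 2.

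The outer cage of the coat is built from SEC13 and SEC31A. SEC13 stood at 6.19 and 6.61 with PRSS8 and at 6.15 and 6.13 in control (0.25, SE 0.36), which left the nearest arrays 1.02-fold apart. SEC31A differed by 0.43 (SE 0.68), with 0.33 in replicate 1 and 0.53 in replicate 2 and overlapping groups.

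Among the genes that start COPII assembly, PREB, the exchange factor for SAR1, had the highest difference. Its PRSS8 arrays stood at 7.29 and 8.33 and its control arrays at 6.83 and 7.41, a difference of 0.69 (SE 0.62), with 0.45 and 0.92 in replicates 1 and 2. The replicate 1 PRSS8 array lay just under the replicate 2 control array, so the groups overlapped. The SAR1 GTPases differed by 0.30 (SAR1A, SE 0.70) and 0.41 (SAR1B, SE 0.66) and were higher in both numbers. SEC16A, the scaffold of ER exit sites, stood at 6.40 and 6.39 with PRSS8 and at 6.51 and 6.39 in control (−0.06, SE 0.36). It was the only one of the 12 COPII genes lower in both numbers, by sizes of 0.10 and 0.01, and its promoter held both motifs. A second, dimmer SEC16A probe set stood at 3.63 and 3.83 with PRSS8 and at 3.85 and 4.07 in control, near the array medians. There both PRSS8 arrays lay under both controls, and the mean of the probe sets gave a SEC16A difference of −0.14 (SE 0.21). The median of the 4 assembly genes was 0.36, and between −0.14 and 0.58 with an array left out.

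**Figure D3:**
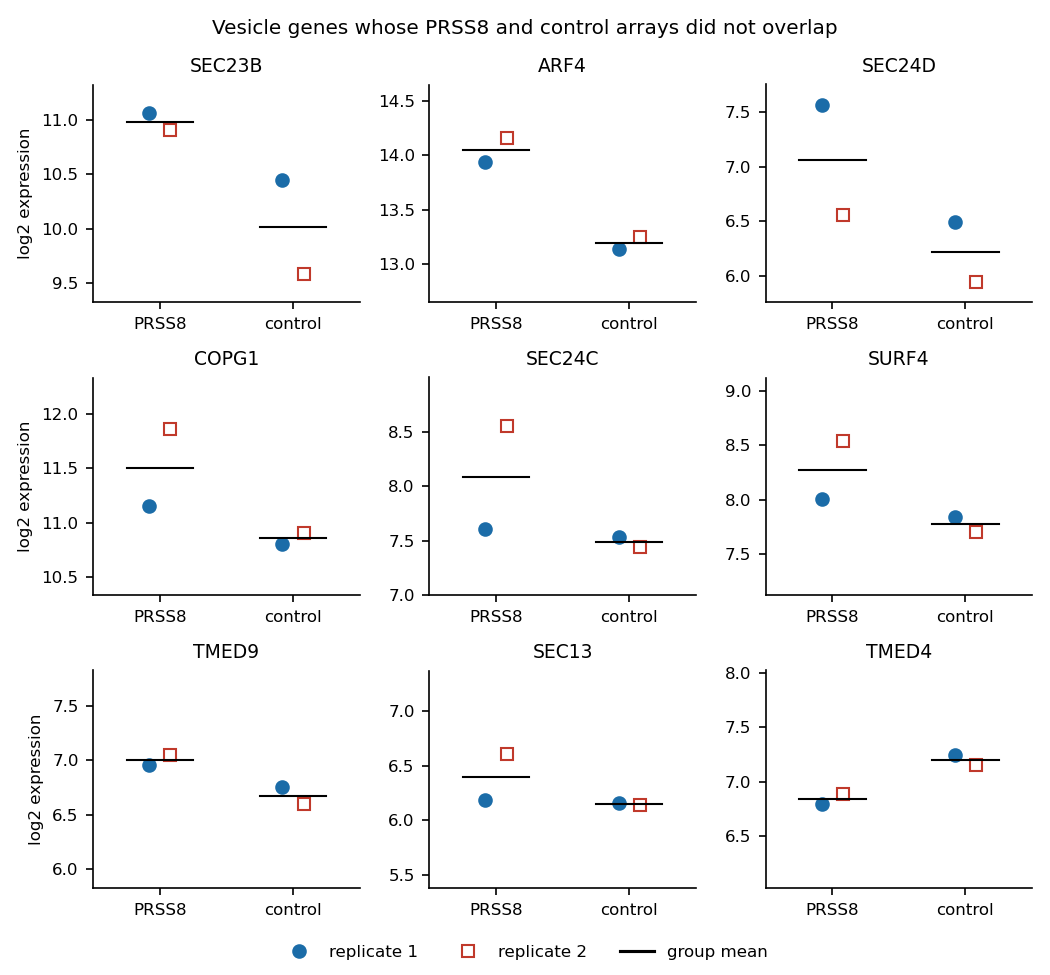
Log2 expression on the PRSS8 arrays (left in each panel) and the control arrays (right) for the 9 vesicle genes whose groups did not overlap, replicate 1 as filled circles, replicate 2 as open squares and the group mean as a bar; each vertical axis spans 2 log2 units. Both PRSS8 arrays lie above both controls in the first 8 panels and below them for TMED4, and the clearance is widest for ARF4.

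Of the 9 genes of the COPI coat, 7 were higher in both replicate numbers, where 26.0% of all genes and 38.0% at level 6 or above were, and 0 were lower in both, where 24.5% and 15.0% were. The median difference was 0.65, with 0.34 in replicate 1 and 0.95 in replicate 2, and it ranged from 0.007 without control replicate 2 to 0.995 without control replicate 1. COPE (epsilon-COP) had the highest difference of all 41 genes. It stood at 10.71 and 13.34 on the PRSS8 arrays, against 10.19 and 11.33 on the controls, a difference of 1.27 (SE 1.18) or 2.41-fold. Most of it lay in replicate 2, at 2.01 against 0.52 in replicate 1, and the replicate 1 PRSS8 array was under the replicate 2 control array.

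COPG1, a gamma-COP, was the 1 coatomer gene whose groups did not overlap. It stood at 11.15 and 11.86 with PRSS8 and at 10.81 and 10.91 in control (0.65, SE 0.77), and the nearest arrays were 1.19-fold apart. Its paralog COPG2 differed by 0.37 (SE 0.66), with opposite signs in the replicate numbers, −0.27 and 1.02.

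The subunits COPB1 (beta-COP), COPB2 (beta-prime-COP) and ARCN1 (delta-COP) shared a pattern: a positive difference in both replicate numbers on top of a far larger gap between those numbers. COPB1 differed by 0.90 (SE 1.43), COPB2 by 0.78 (SE 1.57) and ARCN1 by 0.78 (SE 1.24). Replicate 2 minus replicate 1 averaged −2.65, −3.0 and −2.21 for the same genes. COPA (alpha-COP) differed by 0.52 (SE 0.82) and COPZ1 (zeta-COP) by 0.37 (SE 0.87), both higher in both numbers. COPA was 0.007 without control replicate 2 and stood at 1.02 without control replicate 1. COPZ2, the second zeta-COP gene, stood at 3.93 and 4.04 with PRSS8 and at 3.91 and 4.09 in control, near the array medians. Its difference of −0.01 (SE 0.15) turned to 0.018 after cyclic loess, and no level above background can be stated for it.

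The measured KDEL receptors did not keep 1 direction across the replicate numbers. KDELR1 stood at 11.41 and 13.29 on the PRSS8 arrays, against 12.22 and 12.64 on the controls (−0.08, SE 0.93), which was −0.81 in replicate 1 and 0.65 in replicate 2. KDELR3 stood at 8.22 and 8.83 with PRSS8 and at 8.41 and 8.04 in control (0.30, SE 0.64), with −0.19 and 0.79. Both receptors were thus lower in replicate 1 and higher in replicate 2. They were 2 of the 9 vesicle genes with opposite signs, and KDELR1 had the most negative replicate 1 value of all 41. Their median of 0.11 became −0.047 after quantile normalization, and −0.51 to 0.73 with an array left out.

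The p24 proteins cycle between ER and Golgi and select cargo such as anchored surface proteins. Of the 6 measured, 4 were higher in both numbers (26.0% of all genes and 38.0% at level 6 or above) and 1 lower in both (24.5% and 15.0%), and their median difference was 0.23, with 0.16 in replicate 1 and 0.26 in replicate 2. With an array left out it ranged from −0.24 to 0.63. TMED2 had the highest difference, with 14.44 and 13.13 on the PRSS8 arrays against 13.85 and 12.75 on the controls (0.49, SE 0.81). TMED10, which forms complexes with TMED2, differed by 0.46 (SE 1.07). TMED9 stood at 6.96 and 7.05 with PRSS8 and at 6.75 and 6.6 in control (0.33, SE 0.41), and the nearest arrays of the groups were 1.15-fold apart.

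TMED4 went the other way. It stood at 6.80 and 6.89 on the PRSS8 arrays, against 7.25 and 7.16 on the controls, a difference of −0.36 (SE 0.43), with −0.45 in replicate 1 and −0.27 in replicate 2. Arrays of one group differed by under 0.1, and with any 1 array left out the difference stayed between −0.41 and −0.31. After quantile normalization its groups overlapped. TMED5 differed by 0.12 (SE 0.75). TMED3 differed by −0.02 (SE 0.27) at levels of 3.93 and 4.49 with PRSS8 and 4.01 and 4.44 in control, close to the array medians, and its difference was 0.0035 after cyclic loess.

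All 4 other cargo receptors had a positive difference, with a median of 0.36 that ranged from 0.02 to 0.49 with an array left out. LMAN1 (ERGIC-53) is a lectin that carries glycoproteins, clotting factors among them, out of the ER together with MCFD2. Its PRSS8 arrays stood at 14.76 and 9.67 and its control arrays at 14.04 and 8.63, a difference of 0.88 (SE 2.51), with 0.72 in replicate 1 and 1.05 in replicate 2. The levels of replicates 1 and 2 were about 5 log2 units apart in both groups, the largest such gap among the 41 genes. MCFD2 itself stood at 6.65 and 6.05 with PRSS8 and at 6.49 and 5.93 in control (0.14, SE 0.43). LMAN1 and its partner thus had the highest and the lowest difference of these receptors. SURF4, a receptor for soluble cargo, stood at 8.0 and 8.54 on the PRSS8 arrays, against 7.84 and 7.70 on the controls (0.50, SE 0.59), without overlap. LMAN2 (VIP36), another lectin, differed by 0.22 (SE 0.75).

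The measured tethers and SNAREs were all higher in both replicate numbers, 4 of 4, where 26.0% of all genes and 38.0% at level 6 or above were. The median difference was 0.24, and it was 0.15 without PRSS8 replicate 2 and 0.26 without PRSS8 replicate 1. STX5, the SNARE at the Golgi that receives incoming vesicles, stood at 7.23 and 8.80 with PRSS8 and at 6.98 and 7.81 in control (0.62, SE 0.77), with overlapping groups. Its SNARE partners YKT6 and BET1 differed by 0.25 (SE 0.40) and 0.24 (SE 0.32). GOLGA2 (GM130), a Golgi tether, stood at 6.47 and 5.99 on the PRSS8 arrays, against 6.17 and 5.96 on the controls (0.16, SE 0.36), nearly all of it in replicate 1.

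Replicate number was the larger source of spread for most of these genes. Replicate 2 minus replicate 1, averaged over the 2 groups, exceeded the PRSS8 difference in size for 30 of 41 genes (73.2%), against 84.9% of all genes and 89.0% at level 6 or above, and ran from −5.25 (LMAN1) to 1.88 (COPE). The 11 exceptions were the 9 genes without overlap, KDELR3 and LMAN2. For the 9 genes this follows by arithmetic from the lack of overlap and is no further result. The SEs above include this spread, since the fit had no term for the number. They are also moderated by a trend over genes of similar level, so they are not a gene's own array scatter alone. For ARF4 the SE was 0.59 with that trend and 0.17 without it, and for TMED4 it was 0.43 and 0.15. The PRSS8 difference was larger in replicate 2 for 34 of 41 genes (82.9%), where 53.1% of all genes and 76.7% of genes at level 6 or above showed the same. Across the 41 genes, the replicate 1 and replicate 2 differences correlated with Pearson's r = 0.42 and Spearman's rho = 0.52, against 0.32 and 0.23 over genes at level 6 or above. These are descriptions across genes of the same 4 arrays, and genes are not independent replicates. In 5 genes the difference was at least 1.5-fold in both numbers (12.2%, against 0.46% of all genes and 1.66% at level 6 or above): SEC23B, SEC24D, ARCN1, ARF4 and LMAN1.

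**Figure D4:**
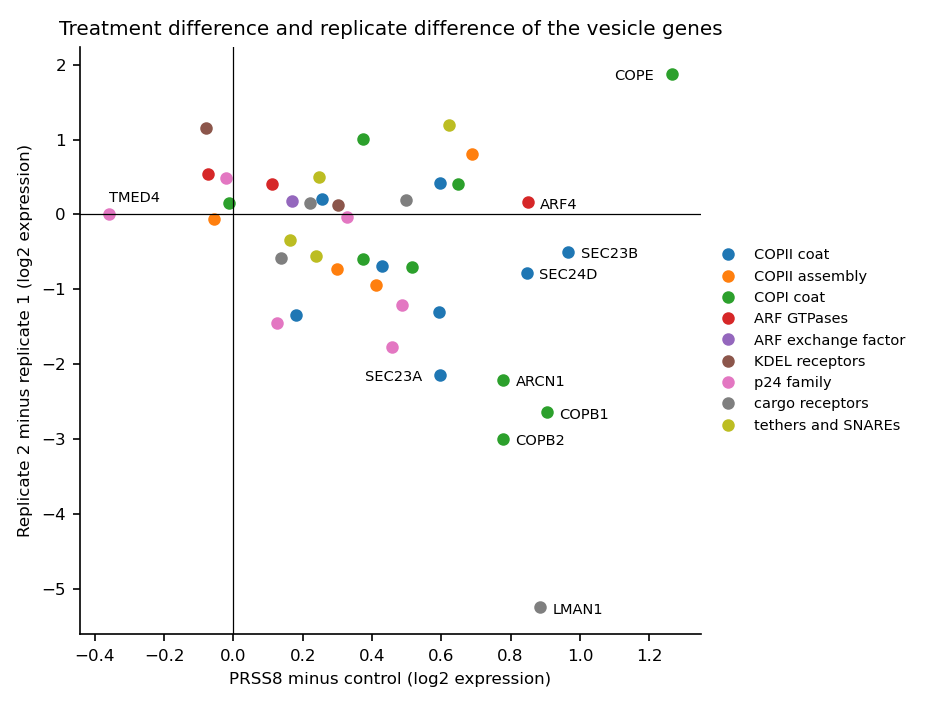
PRSS8 minus control (horizontal axis) against replicate 2 minus replicate 1 averaged over the 2 groups (vertical axis), both in log2 expression, for the 41 vesicle genes coloured by role. Most genes lie right of 0, while the vertical spread runs from −5.25 for LMAN1 to 1.88 for COPE.

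**Figure D5:**
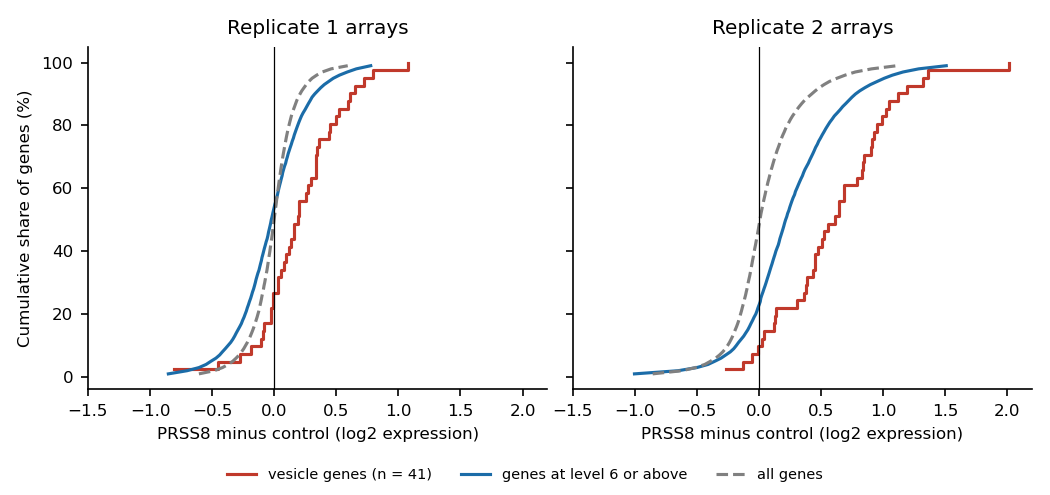
Cumulative share (%) of genes by PRSS8 minus control (log2 expression) within replicate 1 (left) and replicate 2 (right), for the 41 vesicle genes (solid red), the 5788 genes at level 6 or above (solid blue) and all 22411 genes (dashed). The vesicle genes lie to the right of both backgrounds over most of both panels, with medians of 0.19 and 0.62 against −0.02 and 0.22 at level 6 or above. At the low end of replicate 1 they do not, where KDELR1 stands at −0.81.

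Partners of the same pathway outside the group showed a smaller shift. Of 78 listed partners 73 were measured, 39 were higher in both numbers, where 26.0% of all genes and 38.0% at level 6 or above were, and 7 lower in both, where 24.5% and 15.0% were, with a median difference of 0.15, 0.05 in replicate 1 and 0.27 in replicate 2. In limma 0 of 73 passed and 0 had an unadjusted p under 0.05. By function, the median was 0.13 for 18 COPII and cargo export partners, 0.13 for 8 COPI partners and ARF regulators, 0.28 for 33 genes of tethering and Rab proteins, and 0.18 for 14 genes of SNARE machinery. Higher in both numbers were 8 of 18, 6 of 8, 19 of 33 and 6 of 14 of these, and the first and the last of these shares lie near the 38.0% of genes at level 6 or above.

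Groups did not overlap for 3 partners above control and 1 below, 4 of 73 in all, where 5.53% of all genes stood above and 5.56% below (6.12% and 2.21% at level 6 or above). GORASP2, a Golgi stacking protein, stood at 8.58 and 8.38 with PRSS8 and at 8.20 and 8.15 in control (0.30, SE 0.60), the TRAPP tether subunit TRAPPC3 at 7.26 and 7.60 with PRSS8 and at 7.16 and 7.23 in control (0.24, SE 0.48), and SEC22A at 5.42 and 5.45 with PRSS8 and at 5.33 and 5.29 in control (0.13, SE 0.23). TRAPPC2 stood at 4.53 and 4.50 on the PRSS8 arrays, against 4.55 and 4.6 on the controls (−0.06, SE 0.16). The highest differences were those of the golgin partner BLZF1 (0.92, SE 1.87), the ER-Golgi membrane protein YIPF5 (0.76, SE 1.10) and TRAPPC6B (0.69, SE 1.15). The lowest were those of the tether GOLGB1 (−0.12, SE 1.66), KLHL12, an adaptor for ubiquitination of SEC31 (−0.09, SE 0.49), and TRAPPC6A (−0.09, SE 0.32). Each of these 6 was under its SE, which includes the gap between replicate numbers. Within replicates 1 and 2 the highest were 0.87 and 0.97 (BLZF1), 0.40 and 1.13 (YIPF5), and 0.71 and 0.67 (TRAPPC6B). For the lowest the values were −0.17 and −0.07 (GOLGB1), −0.14 and −0.05 (KLHL12), and −0.18 and 0.0036 (TRAPPC6A).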

How the data were processed

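Per the submitters' processing notes, the authors used RMA in Affymetrix Expression Console 1.3.1, and what they deposited is 1 log2 value for each probe set and array. The sources used here do not say whether RMA was run on all 4 arrays at once. Sorted levels differed by a median of 0.009 within replicate 1 and 0.058 within replicate 2, but by 0.22 to 0.28 across numbers. No scanner files were used, so detection above background is unknown, and precision is limited by having 4 arrays.

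Control and exon-level probe sets (2995 of 70523) were left out. Of 67528 transcript clusters, 23781 had 1 symbol, 1543 several and 42204 none. Symbols were updated by Entrez identifier to RefSeq (GRCh38.p14). The brightest of a gene's probe sets stood for it, and dim genes were kept.

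Groups were compared in R 4.3.3 with limma 3.58.1 (lmFit, eBayes with an intensity trend, two-sided, Benjamini-Hochberg over 22411 genes), without a replicate block, after the code was tested on simulated data. SEs are moderated. Other steps used Python 3.11.15, pandas 2.3.3 and numpy 2.4.6. The background at level 6 was added after seeing the data. Alternatives were other variance models and normalizations, a filter on dim genes, the mean of probe sets, a replicate block, fold limits and leaving out each array.

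The members and lists were chosen with earlier results of these data known. Every member is named. Levels on every array are given for members whose groups did not overlap and for the highest and lowest difference of each role. Of the partners, the text names those without overlap above the median level and the 3 highest and 3 lowest. Array values of SEC23A, ARF5 and TMED3, and the stretches of sequence, were chosen after values were seen.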

Additional observations from a re-analysis of the deposited data

How the results depend on the processing

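All values here are PRSS8 minus control. No alternative gave a vesicle gene an adjusted p under 0.05. Past that threshold over all genes were 0 under every setting with 4 arrays, and 0 to 62 with an array left out (62 without control replicate 1, 8 without control replicate 2). Without an intensity trend 0 genes passed. There 62 of all 22411 genes and 1 of the 41 vesicle genes had an unadjusted limma p under 0.05. With the replicate number as a block, 0 genes passed, and the lowest adjusted p of a vesicle gene was 0.94. In that limma fit 1174 of all 22411 genes and 8 of the 41 vesicle genes had an unadjusted p under 0.05. No share among bright genes is available for this setting, so the 8 vesicle genes lack a background of similar level. The labels do not say that a number marks a shared culture or day. With 2 arrays a group, deviations from the group means correlated at 0.91 between same-numbered arrays, which is a hint from the data only.

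The group median was 0.30 to 0.42 under the settings with 4 arrays and 0.08 to 0.60 with an array left out. Leaving out an array moved the role medians to 0.14 to 1.04 (COPII coat), 0.007 to 0.995 (COPI coat), −0.19 to 0.41 (ARF), −0.51 to 0.73 (KDEL receptors), −0.24 to 0.63 (p24), −0.14 to 0.58 (COPII assembly), 0.02 to 0.49 (cargo receptors), 0.15 to 0.26 (tethers and SNAREs) and −0.015 to 0.36 (GBF1). That of the KDEL receptors was −0.047 after quantile normalization. Genes without overlap above control numbered 5 of 41 after quantile normalization (8.88% of all genes), 8 after cyclic loess (9.14%), 9 after median centring (9.63%), 1 at a 1.5-fold gap (0.0714%) and 0 at a 2-fold gap (0.0312%). Leaving out PRSS8 replicate 1 gave 19 (33.7% of all genes), PRSS8 replicate 2 gave 24 (18.7%), control replicate 1 gave 28 (24.1%) and control replicate 2 gave 14 (35.7%), so that the last share is no higher than that of all genes. Below control they numbered 2 after cyclic loess (7.47%), 2 with probe sets averaged (5.56%, the second being SEC16A), 0 after quantile normalization (6.84%), 0 at 1.5-fold (0.0357%) and 0 at 2-fold (0.0089%). Leaving out PRSS8 replicate 1 gave 2 (16.1%), PRSS8 replicate 2 gave 6 (35.1%), control replicate 1 gave 3 (38.0%) and control replicate 2 gave 4 (20.5%). Higher in both replicate numbers were 32 of 41 after cyclic loess (30.1% of all genes), 30 after median centring (31.7%) and 31 after quantile normalization (30.6%). With probe sets averaged they were 29 of 41 (26.0%). Among genes above the median level they were 29 of 40 (31.6% of such genes), and at level 6 or above 28 of 38 (38.0%). This number was not computed with an array left out.

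COPZ2 turned to 0.018, 0.019 and 0.026, and TMED3 to 0.0035, 0.0091 and 0.03, after cyclic loess, median centring and quantile normalization. With an array left out, when groups also differ in replicate number, 28 of 41 differences changed sign. Their ranges were SEC23A (−0.61 to 1.80), SEC24A (−0.10 to 1.29), SEC24B (−0.60 to 0.96), SAR1A (−0.17 to 0.76), SAR1B (−0.20 to 1.02), SEC16A (−0.11 to 0.0025), COPB1 (−0.65 to 2.46), COPB2 (−0.93 to 2.49), COPG2 (−0.25 to 0.995), COPE (−0.047 to 2.58), COPZ1 (−0.22 to 0.97), COPZ2 (−0.11 to 0.081), ARCN1 (−0.39 to 1.95), ARF3 (−0.37 to 0.23), ARF5 (−0.19 to 0.41), GBF1 (−0.015 to 0.36), KDELR1 (−1.02 to 0.86), KDELR3 (−0.0059 to 0.61), TMED2 (−0.17 to 1.14), TMED3 (−0.30 to 0.26), TMED5 (−0.61 to 0.86), TMED10 (−0.52 to 1.44), LMAN1 (−1.82 to 3.59), MCFD2 (−0.16 to 0.44), GOLGA2 (−0.075 to 0.40), BET1 (−0.093 to 0.57), STX5 (−0.16 to 1.40) and YKT6 (−0.10 to 0.59). Those of the other 13 were SEC13 (0.043 to 0.47), SEC31A (0.034 to 0.82), SEC23B (0.54 to 1.39), SEC24C (0.12 to 1.07), SEC24D (0.34 to 1.35), PREB (0.16 to 1.21), COPA (0.007 to 1.02), COPG1 (0.29 to 1.0), ARF4 (0.74 to 0.96), TMED4 (−0.41 to −0.31), TMED9 (0.25 to 0.41), LMAN2 (0.027 to 0.41) and SURF4 (0.23 to 0.77).

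Without detection values, the small differences of COPZ2 and TMED3 do not show that these genes were unchanged.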

Other observations

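In 7 vesicle genes the larger difference was that of replicate 1: SEC24D, COPZ2, ARF3, TMED2, MCFD2, GOLGA2 and BET1.

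Among measured genes with a promoter window, 37 in all, the 19 with TGACGTGG or ACGTGGC had a median PRSS8 minus control of 0.50 (range −0.06 to 0.90) and the 18 with neither had 0.24 (−0.08 to 1.27). Within replicate 1 these medians were 0.20 and 0.15, and within replicate 2 they were 0.79 and 0.50. Higher in both replicate numbers were 14 of 19 with a motif and 12 of 18 without, where 26.0% of all genes and 38.0% at level 6 or above were. PRSS8 arrays stood above both controls in 4 of 19 with a motif and 1 of 18 without, where 5.53% of all genes and 6.12% at level 6 or above did, and the difference between these counts was not tested.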
